A study of Mus musculus with 13 samples.

Results

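Kidneys of mice that had lost Pkd2 in the collecting duct were compared with kidneys of control mice at postnatal day 20, by RNA-seq of whole kidneys. The members were the 4 Pkd2 kidney libraries of the 13 samples in the series, 2 knockouts and 2 controls, taken by the genotype and the library name in the labels. All 28183 genes of the deposited kidney table were read, and 14637 of them were tested. The other samples were 4 kidneys of a Pkd1 model at postnatal day 10 and 5 samples of a kidney cell line. All mice were C57BL/6 and all 4 carried floxed Pkd2 alleles (Pkd2f/f). The knockouts also carried the Pkhd1/Cre transgene (Pkhd1/Cre+;Pkd2f/f), and the controls did not (Pkhd1/Cre-;Pkd2f/f), so that no control with Cre and an intact Pkd2 gene is among them. The titles of the knockout samples carry the word WT, while their genotype and library name give a knockout, and they are called knockouts here. In the Pkd1 model, the knockouts were KSP/Cre+;Pkd1f/f and the controls KSP/Cre-;Pkd1f/f, 2 kidney samples each.

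Pkd2 encodes polycystin-2, a cation channel of the primary cilium and the endoplasmic reticulum that works with polycystin-1, the product of Pkd1. Loss of either protein in tubule cells gives autosomal dominant polycystic kidney disease, in which tubules widen into cysts, the epithelium proliferates and the tissue around the cysts becomes inflamed and fibrotic. The Pkhd1 promoter drives Cre in collecting ducts, so most cells of these kidneys keep both Pkd2 alleles. In whole tissue, fewer cells of a type and less RNA per cell cannot be told apart.

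The values are read counts scaled to library size, close to CPM, and a gene was called higher or lower at a Benjamini-Hochberg adjusted p below 0.05 by limma on log2(value + 1). Values are given in the order control 1, control 2, knockout 1, knockout 2, and log2 changes are knockout minus control with their standard error (SE). The libraries held about 49600000, 57600000, 40200000 and 30700000 reads. The labels do not say whether the replicates are separate animals, so a p-value here covers only the variation among these libraries, which for the controls may be technical. The controls were close to each other (Pearson's r of the log2 values across genes 0.991), and knockout 2 stood farther from them (0.903 to 0.910) than knockout 1 (0.954 to 0.959). Both controls and knockout 2 had high Xist (346, 350 and 449) and almost no Y-linked RNA, while knockout 1 had 1.74 for Xist and a Y-linked sum of 169, so knockout 1 was of the other sex and the knockouts were separate animals. Mitochondrially encoded RNA made up 41.4%, 41.3%, 34.7% and 30.1% of the values, and annotated small RNAs 20.4%, 19.8%, 23.7% and 6.42%. Knockout 2 therefore stood apart in its small RNAs, and knockout 1 in its sex. Their part in the results was not tested, and counts without each library are given below.

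The Pkd2 gene itself (ENSMUSG00000034462.9, chr5:104459450-104505819, mm10) was at 69.0 and 61.2 in the controls and at 50.7 and 53.3 in the knockouts. The log2 change of -0.32 ± 0.21 did not pass the test (adjusted p = 0.33). The value covers the whole gene, floxed part included or not, and the whole kidney, so it does not check the deletion in the collecting duct. Pkhd1, the gene whose promoter drives the Cre and which encodes fibrocystin of the cilium, was at 149, 157, 163 and 229 (0.33 ± 0.21, adjusted p = 0.31). Pkd1 was at 27.6, 27.2, 25.1 and 31.7 (0.04 ± 0.19, adjusted p = 0.91). Hoxb3os, a long antisense RNA of the HoxB cluster, was at 2.60, 1.99, 1.71 and 0.370 (-0.77 ± 0.29, adjusted p = 0.10). Its lowest value was that of knockout 2, and the strand setting of the counting is not given, so its reads cannot be told apart from those of genes on the other strand. None of these 4 genes passed the test.

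Of the 14637 tested genes, 2587 (17.7%) were called, 1397 higher (9.54%) and 1190 lower (8.13%) in knockouts. At least 2-fold changes made up 1345 of them (9.19%), 766 higher (5.23%) and 579 lower (3.96%). In all 2587 called genes the groups did not overlap. That both knockouts lie on 1 side of both controls therefore adds nothing to a call. Knockout 2 had moved farther than knockout 1 in 1171 of the genes called higher and in 1037 of those called lower. The genes called higher had a median log2 change of 0.89 in knockout 1 and 1.22 in knockout 2, and those called lower -0.77 and -1.20, against 0.01 and -0.01 over all tested genes. Without knockout 1 the counts were 2050 higher (14%) and 2278 lower (15.6%), and without knockout 2 they were 700 (4.78%) and 367 (2.51%). They were 511 (3.49%) and 301 (2.06%) without control 1 and 480 (3.28%) and 189 (1.29%) without control 2. Counts for a gene list with a library left out are given below in the order knockout 1, knockout 2, control 1 and control 2. All list counts stand beside 9.54% called higher and 8.13% called lower over all tested genes. Some genes are in more than 1 list, so the lists are not independent of each other. Only genes that reached 1 in 2 or more of the 8 kidney libraries were tested. A gene with both controls below 1 reached 1 among the Pkd2 libraries only in knockouts. This filter thus favoured rises in lists that hold such genes. Of the 2587 called genes, 2434 were also called without knockout 1 and 1039 without knockout 2.

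**Figure D1:**
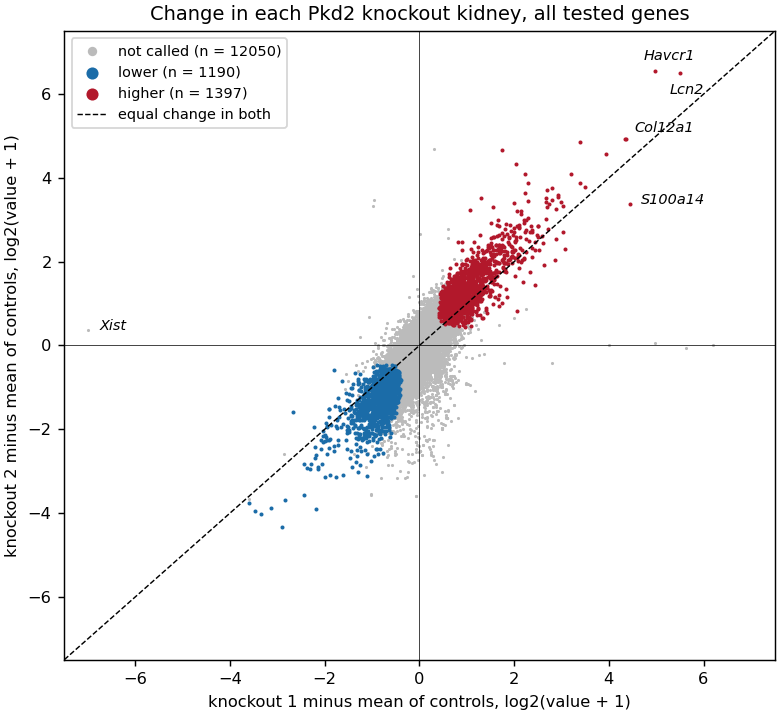
Each point is a tested gene, with its change in knockout 1 on the x axis and in knockout 2 on the y axis, both against the mean of the controls on the log2(value + 1) scale; red and blue mark the 1397 genes called higher and the 1190 called lower. Most called genes lie beyond the dashed line of equal change, on the side of knockout 2, while Xist separates the knockouts.

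The largest rises included secreted and surface proteins of damaged epithelium, of matrix and of inflammatory signalling. Lcn2 (ENSMUSG00000026822.12, chr2:32384633-32388252), which encodes the secreted lipocalin NGAL, a widely used marker of kidney tubule damage, was at 1.72, 2.01, 130 and 260. It rose by 6.01 ± 0.31 (adjusted p = 7.7e-05), with knockout 2 above knockout 1. Havcr1 (ENSMUSG00000040405.11, chr11:46735080-46779578) encodes KIM-1, a phosphatidylserine receptor that injured proximal tubule cells put on their surface. It was at 0.286 and 0 in the controls and at 34.6 and 106 in the knockouts, a rise of 5.77 ± 0.42 (adjusted p = 0.00033). Col12a1 (ENSMUSG00000032332.15, chr9:79598991-79718831), a collagen that sits on collagen I fibrils, was at 27.4, 29.9, 602 and 905, a rise of 4.64 ± 0.24. Il18r1, a chain of the interleukin-18 receptor, was at 0.832, 0.574, 33.7 and 50.7 (4.64 ± 0.23, adjusted p = 7.7e-05). In each of these 4 genes the lower knockout was above both controls by a wide margin.

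Timp1, an inhibitor of matrix metalloproteinases, was at 0.182, 0.199, 10.0 and 19.3 and rose by 3.65 ± 0.27 (adjusted p = 0.00033). Dio2, the deiodinase that makes active thyroid hormone, was at 1.12, 0.993, 20.7 and 58.1, and Ankrd1, a nuclear protein induced by stretch and YAP, at 0.416, 0.882, 16.1 and 23.1. S100a14 differed from the genes above in that knockout 1 (57.2) was above knockout 2 (26.5), with controls at 2.16 and 1.24. Lgi2, a secreted protein best known from the brain, rose by 4.26 ± 0.23. Fgg, the gamma chain of fibrinogen, rose by 3.64 ± 0.38 (adjusted p = 0.00098). Ltbp2, a microfibril protein, rose by 3.28 ± 0.30 (adjusted p = 0.00060). Ccr2, the chemokine receptor by which monocytes enter tissue, was at 1.46, 3.18, 23.3 and 37.5. These 12 rises were picked among called genes with both knockouts above both controls, so holding in both knockouts is no further result.

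The largest falls included hormone, transport and signalling genes of the distal nephron. Egf (ENSMUSG00000028017.5, chr3:129677565-129755316), which encodes the precursor of epidermal growth factor made by the thick ascending limb and distal convoluted tubule, was at 1506, 1682, 180 and 107. It fell by 3.51 ± 0.27 on the log2 scale (adjusted p = 0.00034), and neither knockout came near the controls. Kcnt1, a sodium-activated potassium channel, was at 26, 33.1, 1.99 and 0.856 (-3.69 ± 0.38, adjusted p = 0.00096). Cacna2d2, an auxiliary subunit of calcium channels, was at 14.3, 14.4, 0.280 and 0.139 (-3.67 ± 0.26, adjusted p = 0.00032). Their controls agreed closely and both knockouts were almost without the transcript. Ppp1r1b, the phosphatase inhibitor DARPP-32, was at 27.2, 41.6, 3.84 and 1.71, and its relative Ppp1r1a was at 37.2, 38.4, 8.69 and 3.38. Klk1, tissue kallikrein of the connecting tubule, was at 325, 345, 61.0 and 27.4 (-3.00 ± 0.46, adjusted p = 0.0040), and belongs to a family of near-identical genes among which reads could be split. Dnase1, a secreted nuclease, was at 143, 144, 28.3 and 17.9 and fell by 2.62 ± 0.22 (adjusted p = 0.00045). Slc2a4, the insulin-responsive glucose transporter GLUT4, was at 27.8, 34.6, 5.58 and 3.47 (-2.56 ± 0.23). Wfdc15b, a protease inhibitor gene, fell by 3.04 ± 0.46 (adjusted p = 0.0039). Slc6a12, the betaine transporter that serves osmotic balance in the medulla, fell by 2.63 ± 0.47 (adjusted p = 0.0078), with controls that differed (13.9 and 6.26), and lost the call in 1 of the 4 fits without a library (adjusted p = 0.058 without control 1).

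The remaining pair of the 12 largest falls, Alb and Ucp1, are genes of liver and brown fat. Alb, serum albumin, was at 18.2, 11.7, 0.392 and 0 (-3.72 ± 0.59, adjusted p = 0.0047), and Ucp1, the uncoupling protein of brown fat, at 15.2, 24.4, 1.71 and 0 (-3.63 ± 0.69, adjusted p = 0.0094). Of 8 tested genes of brown and white fat, 3 fell and none rose (median -1.57), the others by name being Cidea (5.41, 10.8, 1.35 and 0.0231) and Pparg (3.17, 4.68, 1.57 and 1.53). The summed level of the fat list was 116 and 165 in controls and 76.8 and 27.3 in knockouts, and 7 of the 8 fell without knockout 1 while none did without knockout 2 or control 2 and 3 did without control 1. Control 2 also held RNA of the adrenal gland, whose list summed to 2.81, 99.4, 0.336 and 0.532. Hsd3b1, a steroid-making enzyme of that gland, was at 1.51, 63.5, 0.0561 and 0 (adjusted p = 0.058), and Star, which brings cholesterol to it, at 1.30, 35.9, 0.280 and 0.532 (adjusted p = 0.087). Both lists were higher in the controls, and their part in the falls of Alb and Ucp1 was not tested. Ucp1, Cidea and Pparg lost their calls without control 2 (adjusted p = 0.074, 0.12 and 0.16) and without knockout 2 (0.061, 0.093 and 0.081), and Ucp1 and Cidea with DESeq2 (0.14 and 0.12).

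**Figure D2:**
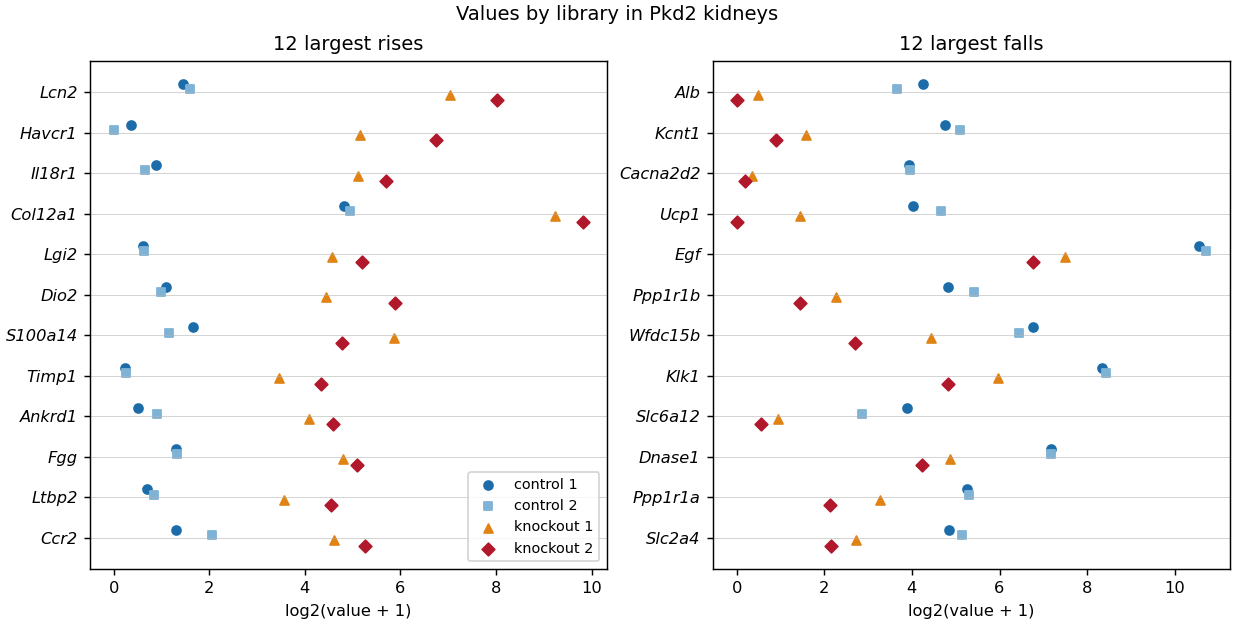
Points are the log2(value + 1) of the 12 largest rises (left) and 12 largest falls (right) in each of the 4 Pkd2 libraries. Knockout 2 lies beyond knockout 1 in all of them but S100a14.

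Genes known to be switched on in damaged tubule epithelium rose as a group. Of 26 tested members of the tubule injury list, 21 rose and none fell, against 9.54% and 8.13% of all tested genes, and their median change was 1.78 against -0.01 over all genes. With a library left out the rises numbered 24, 19, 17 and 15. Krt18, a keratin of simple epithelia, was at 9.20, 7.02, 59.3 and 93.1 and rose by 3.06 ± 0.23 (adjusted p = 0.00033). Its partner keratin Krt8 was at 21.3, 21.3, 49.6 and 90.8 (1.61 ± 0.26, adjusted p = 0.0046). Both are also markers of collecting duct cells. Of the members that did not pass, Prom1, a protein of membrane protrusions, was at 385, 314, 425 and 619 (0.56 ± 0.25, adjusted p = 0.15), with a wide spread between the knockouts. The S100 and annexin family, calcium-binding proteins of epithelia and leukocytes, gave 10 rises and 1 fall among 21 genes (median 0.52). Some of these rises, Anxa1 among them, are counted in the injury list as well. Anxa1, an annexin that dampens inflammation, was at 8.68, 8.69, 38.0 and 45.6, a rise of 2.14 ± 0.18 (adjusted p = 0.00048), and S100a10, a partner of annexin A2, at 24.4, 20.1, 51.0 and 48.8 (adjusted p = 0.051 without control 2). The rises of this family numbered 9, 7, 7 and 4 with a library left out.

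Tight junction genes moved in both directions. Among 14 claudins, which set the permeability between epithelial cells, 5 rose and 1 fell (median 0.01). Cldn4, a claudin of the collecting duct, was at 4.76, 4.15, 24 and 42.3, a rise of 2.60 ± 0.26 (adjusted p = 0.00076), and Cldn3 was at 1.17, 1.43, 3.95 and 3.93. Cldn4 is counted among the injury genes as well. Cldn7 was at 11.9, 10.5, 22.1 and 26.5 and rose by 1.05 ± 0.19. The claudin that fell was Cldn10, of the proximal tubule and thick ascending limb, at 104, 94.3, 57.9 and 23.4 (-1.40 ± 0.35, adjusted p = 0.026). Its fall was deeper in knockout 2, and its call was lost without knockout 2, control 1 or control 2 (adjusted p = 0.062, 0.13 and 0.12). Cldn7 lost its call without control 2 (0.081), while the rises of Cldn3 and Cldn4 held in all 4 fits. Rises of claudins numbered 4, 3, 3 and 2 in those fits.

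Of the cell type lists, the macrophage genes had the highest median change. Of 21 tested macrophage genes, 19 rose and none fell (median 2.05), and the rises numbered 19, 18, 17 and 18 with a library left out. The summed level of the list was 92.6 and 93.9 in controls and 359 and 439 in knockouts. Mrc1, the mannose receptor, was at 6.29, 4.85, 36 and 46.1 and rose by 2.68 ± 0.19 (adjusted p = 0.00032). Cd14, the co-receptor for bacterial lipopolysaccharide, was at 1.25, 0.993, 11 and 14.2, and Lyz2, lysozyme, at 6.37, 5.93, 34.9 and 45.5. Mertk, a receptor for dying cells, was lower in both knockouts (21.9, 23.8, 14.9 and 14.9) without passing (adjusted p = 0.099). The complement list gave 8 rises and no fall among 16 genes (median 1.04), among them the C1q chains that macrophages make. These chains are counted in the macrophage list as well. C1qa was at 2.78, 3.09, 18.6 and 21 (2.4 ± 0.16, adjusted p = 0.00032), C1qb at 3.51, 3.42, 16.1 and 18.2, and C1qc at 3.22, 4.04, 20.2 and 18.5. C3ar1, the receptor for C3a, rose by 1.79 ± 0.16 (adjusted p = 0.00059). Knockout 1 and knockout 2 lay close together in these genes.

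Chemokine genes that passed the filter on low values rose with them, while lymphocyte and neutrophil genes stayed at low levels. Of 25 listed chemokine and cytokine genes, 11 were below that filter. Of 14 tested chemokines and cytokines, 12 rose and 1 fell (median 1.51), and the rises numbered 13, 8, 6 and 8 with a library left out. Cxcl1, which draws neutrophils, was at 0.676, 0.574, 6.17 and 14, a rise of 2.68 ± 0.30 (adjusted p = 0.0012). Ccl12, a ligand of Ccr2, was at 0.390, 0.309, 3.20 and 3.54, and Il34, a ligand of the macrophage growth factor receptor, at 3.38, 4.26, 11.3 and 13.5. For Cxcl1 and Ccl12 the controls were below 1, so among the Pkd2 libraries they reached the filter only through the knockouts. The filter thus favoured rises in this list, and its share of rises is partly set by it. Cxcl12, a chemokine of stroma and epithelium, was the member that fell, at 169, 194, 76.5 and 38.5 (-1.72 ± 0.29, adjusted p = 0.0063), and was picked out after its value was seen (adjusted p = 0.057 without control 2). Of the 11 neutrophil genes 3 passed the filter on low values and 1 rose, Csf3r (0.416, 0.529, 1.04 and 2.57). S100a8, a major neutrophil protein, was at 0.312, 0.728, 0.561 and 1.09 (adjusted p = 0.43). Of 10 T and 8 B lymphocyte genes 2 each passed the filter, and Cd4 (0.572, 0.750, 1.46 and 1.62) and Cd79b (0.468, 0.331, 1.29 and 1.36) rose. Among the Pkd2 libraries, Csf3r, Cd4 and Cd79b also reached the filter only in the knockouts. Among 20 interferon response genes 4 rose and 1 fell (median 0.42), against 9.54% and 8.13% of all tested genes. Oas2, a sensor of double-stranded RNA, was at 1.30, 1.30, 7.99 and 13.4 (2.31 ± 0.26, adjusted p = 0.0012), whereas Rsad2, the antiviral protein viperin, fell (57.0, 46.4, 32.6 and 28.0; adjusted p = 0.019). Of the 20 interferon genes 15 were not called, and the few calls are not read as a trait of the list. The list's median was 0.33 in knockout 1 and 0.60 in knockout 2. Csf3r, Cd4, Cd79b and Rsad2 each passed without knockout 1 and lost their calls without knockout 2 (adjusted p = 0.22, 0.12, 0.053 and 0.088), control 1 (0.19, 0.18, 0.064 and 0.15) or control 2 (0.17, 0.12, 0.12 and 0.063). Cd4 also missed with DESeq2 (0.087).

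Matrix genes that passed were all higher, while most genes of the fibroblast and vessel lists did not pass. Of 36 tested matrix genes 19 rose and none fell (median 0.89), and the rises numbered 20, 14, 11 and 10 with a library left out. Col8a1, a short-chain collagen, was at 6.78, 5.89, 24.2 and 27.8 and rose by 1.88 ± 0.17 (adjusted p = 0.00056). Thbs2, a matricellular protein, was at 6.81, 6.60, 22.6 and 25.0. Basement membrane collagen Col4a1 was at 292, 360, 523 and 617 (0.81 ± 0.27) and Sparc, a collagen-binding protein, at 429, 416, 704 and 676 (0.71 ± 0.23). Neither passed (adjusted p = 0.073 and 0.067). Of 13 fibroblast genes 5 rose and none fell (median 0.83), with 6, 4, 3 and 3 rises as libraries were left out. Postn, periostin, was at 50.1, 53.1, 183 and 184 (1.81 ± 0.20, adjusted p = 0.0010), and Thy1, a surface protein of fibroblasts and T cells, at 0.598, 0.507, 7.06 and 9.53. Some fibroblast genes, Postn among them, are counted in the matrix list as well. Pdgfra, a receptor that marks resting fibroblasts, was at 135, 114, 132 and 155 with overlapping groups (adjusted p = 0.53).

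Of 14 genes of smooth muscle, pericytes and renin cells, 5 rose and 1 fell (median 0.15), with 5, 5, 3 and 3 rises as libraries were left out. Acta2, the smooth muscle actin that myofibroblasts also make, was at 11.1, 14.8, 78.9 and 65.8 (2.4 ± 0.21, adjusted p = 0.00047), and Tagln at 10.5, 15.6, 68.3 and 45.5 (2.04 ± 0.25). Actg2, an actin of visceral smooth muscle, was at 0.260, 0.375, 7.06 and 6.13. In these contractile genes knockout 1 was above knockout 2. Pdgfrb, a pericyte receptor, was at 67.9, 65.5, 75.2 and 88.5 (adjusted p = 0.44). Of 15 endothelial genes none rose and 1 fell, Emcn of capillaries (92.3, 62.4, 48.6 and 39.1; adjusted p = 0.041), a call lost without knockout 2 (0.19), control 1 (0.26) and control 2 (0.053). Without knockout 1 the endothelial falls numbered 6.

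The signalling lists that bear on growth of matrix and epithelium each had more rises than falls in the main fit. Each held called rises with both controls below 1, Inhbb, Ltbp2 and Ankrd1 among them. The filter on low values favoured such rises, and the shares of rises are partly set by it. Among 23 genes of TGF-beta and BMP signalling 10 rose and 2 fell (median 0.27), the rises numbering 10, 7, 5 and 5 with a library left out. Tgfb2, a ligand, was at 2.88, 3.90, 14.3 and 13.9 (1.79 ± 0.18, adjusted p = 0.00077), Inhbb, an activin subunit, at 0.416, 0.441, 4.20 and 6.87, and the induced matrix protein Tgfbi at 5.69, 5.03, 16.4 and 20.6. Knockouts were above controls in all 3, as in every gene called higher. Of 17 targets of the growth regulators YAP and TAZ 8 rose and none fell (median 0.71; 9, 6, 5 and 4 rises with a library left out), among them Cyr61 (3.27, 8.10, 23.4 and 28.5) and F3, tissue factor (5.17, 5.60, 23.8 and 29.6). Among 24 genes of Wnt signalling and planar polarity 9 rose and 3 fell (median 0.15), the rises numbering 9, 5, 4 and 3 with a library left out. Nkd2, an inhibitor of the pathway, was at 1.22, 1.57, 9.19 and 8.62 (2.05 ± 0.17, adjusted p = 0.00045), Dkk2, a secreted antagonist, at 6.03, 7.54, 16.1 and 18.4, and the ligand Wnt4 at 1.07, 1.15, 3.64 and 3.35. Of the Wnt genes named, 2 encode inhibitors. Among 11 ligands and receptors of the EGF receptor family 4 rose and Egf fell, with 5, 2, 1 and 1 rises as libraries were left out. Btc, betacellulin, was at 10.2, 4.61, 26.9 and 30.2 (1.90 ± 0.31, adjusted p = 0.0051), and Hbegf at 3.61, 3.49, 8.58 and 10.9 (1.23 ± 0.23; adjusted p = 0.055 without control 1 and 0.067 without control 2). The ligands of this receptor therefore moved in opposite directions. Erbb4, a receptor, was at 60.7, 53, 47.5 and 58.5 with overlapping groups (adjusted p = 0.71).

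Of 20 immediate early genes 10 rose and none fell (median 0.78), with 9, 8, 6 and 9 rises as libraries were left out. Egr2, a zinc finger factor induced by growth signals, was at 0.520, 0.882, 11.4 and 15.1 (3.06 ± 0.28, adjusted p = 0.00060), and Myc, a driver of cell growth, at 8.99, 8.87, 30.7 and 47.3 (1.98 ± 0.26, adjusted p = 0.0025). Klf6 was at 21.4, 15.3, 50 and 75.5. Dusp1, a phosphatase of the same early response, was at 31.1, 27.9, 29.0 and 15.5 (adjusted p = 0.28), so the list did not move as a whole. The counts of this list and of the p53 and ATF4 lists stand beside 9.54% called higher and 8.13% called lower over all tested genes. Of 20 p53 targets 7 rose and none fell (median 0.47), and the rises numbered 8, 4, 4 and 2 with a library left out. Pmaip1, which encodes the death protein NOXA, was at 2.91, 2.74, 10.7 and 14.2 (1.80 ± 0.22, adjusted p = 0.0019), and Cdkn1a, the cell cycle inhibitor p21, at 4.08, 3.00, 8.21 and 10.6 (adjusted p = 0.063 without control 2). Among 21 targets of the stress factor ATF4 3 rose and 3 fell (median 0.16; 6, 2, 1 and 1 rises with a library left out), Atf3 being the largest rise among those named (1.01, 1.15, 6.39 and 14.6).

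Genes of mitosis rose together. Of 22 tested, 20 rose and none fell (median 1.05), and the list's medians were 0.92 in knockout 1 and 1.30 in knockout 2. The rises numbered 19 without knockout 1, 12 without knockout 2, 7 without control 1 and 5 without control 2. Prc1, a protein of the central spindle, was at 14.6, 15.2, 40.9 and 60.9 and rose by 1.68 ± 0.21 (adjusted p = 0.0017). Tpx2, a spindle assembly factor, was at 6.50, 6.90, 18.6 and 26, Ccnb1, mitotic cyclin B1, at 5.02, 5.16, 12.4 and 15.0, and the kinesin Cenpe at 2.29, 1.90, 6.76 and 11.1. The controls agreed closely and knockout 2 was highest in each. Cdc20 (1.92, 2.21, 3.28 and 3.65) and Kif23 (3.17, 2.25, 3.87 and 7.03) did not pass (adjusted p = 0.11 and 0.070). DNA replication genes gave fewer calls, 7 rises and no fall among 25 (median 0.54), and 9, 2, 3 and 2 rises with a library left out. Uhrf1, which maintains DNA methylation behind the fork, was at 12.6, 10.5, 26.4 and 37.9 (1.39 ± 0.21, adjusted p = 0.0042), whereas Pcna, the sliding clamp, was at 25.9, 23.3, 29.2 and 28.7 (0.23 ± 0.21, adjusted p = 0.48).

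The promoters of mitosis genes that rose are shown because they hold known letters of cell cycle control in this list. The CCAAT box (CCAAT) binds the factor NF-Y, and the CHR element (TTTGAA) binds the complexes that hold such genes off outside the cell division cycle. The 250 bases before the start site were taken from RefSeq (GRCm38.p6) and searched for both on either strand; capitals mark the matches, and the motifs do not overlap.
Ccnb1, chr13:100786487-100786736, minus strand: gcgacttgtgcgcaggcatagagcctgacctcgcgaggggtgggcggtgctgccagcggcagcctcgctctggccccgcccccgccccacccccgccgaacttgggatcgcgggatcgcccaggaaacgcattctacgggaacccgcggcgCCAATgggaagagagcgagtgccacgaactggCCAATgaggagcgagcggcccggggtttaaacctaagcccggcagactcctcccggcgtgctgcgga
Cenpe, chr3:135212313-135212562, plus strand: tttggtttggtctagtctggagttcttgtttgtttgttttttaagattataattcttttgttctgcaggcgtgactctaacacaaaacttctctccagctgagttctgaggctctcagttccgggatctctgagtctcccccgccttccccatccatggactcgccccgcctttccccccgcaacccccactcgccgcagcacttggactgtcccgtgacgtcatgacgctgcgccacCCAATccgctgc
Mki67, chr7:135716380-135716629, minus strand: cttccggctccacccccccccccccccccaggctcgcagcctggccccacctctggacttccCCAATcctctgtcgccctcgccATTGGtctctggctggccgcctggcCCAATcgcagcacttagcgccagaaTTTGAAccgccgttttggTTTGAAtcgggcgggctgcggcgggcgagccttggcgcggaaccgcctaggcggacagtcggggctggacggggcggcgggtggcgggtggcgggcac
Top2a, chr11:99024190-99024439, minus strand: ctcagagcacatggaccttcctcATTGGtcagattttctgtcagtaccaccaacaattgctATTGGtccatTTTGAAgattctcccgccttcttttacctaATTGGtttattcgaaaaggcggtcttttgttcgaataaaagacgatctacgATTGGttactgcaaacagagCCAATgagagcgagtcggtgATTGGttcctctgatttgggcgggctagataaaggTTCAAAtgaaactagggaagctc

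In the promoters above, Ccnb1 held 2 CCAAT matches, Cenpe 1, Mki67 3 with 2 CHR matches and Top2a 6 with 2 CHR matches. Over the list, 18 genes had a promoter in the table, with 19 start sites, of which 17 (89.5%) held CCAAT and 8 (42.1%) held TTTGAA. The shares over 13119 promoters of tested genes were 34.7% and 10.7%. Mki67, the Ki-67 protein of dividing cells, was at 15.8, 13.1, 32.8 and 62.3 (1.59 ± 0.27, adjusted p = 0.0062), and Top2a, the topoisomerase that untangles chromosomes, at 11.6, 10.3, 27.3 and 40.0 (1.52 ± 0.26). Both lost the call without control 2 (adjusted p = 0.060 and 0.057). A match describes the letters of the window and does not show that a factor bound there.

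Along the nephron, the called markers of the proximal tubule, thick ascending limb, distal convoluted tubule, intercalated cells and podocytes were nearly all lower, and those of principal cells were higher, while connecting tubule markers were called in both directions. Many members of these lists did not pass. Of 34 proximal tubule genes 17 fell and 1 rose (median -1.25). The falls numbered 26, 9, 10 and 3 with a library left out. Slc34a1, the sodium phosphate cotransporter, was at 663, 699, 284 and 157 (-1.68 ± 0.28, adjusted p = 0.0053), and Slc22a8, an organic anion transporter, at 112, 127, 50.3 and 31.1 (-1.57 ± 0.23, adjusted p = 0.0032). Gatm, an enzyme of creatine synthesis, was at 253, 305, 109 and 53.1. The member that rose, Slc13a1, a sulfate transporter, was at 53, 63.3, 156 and 100 (1.10 ± 0.23, adjusted p = 0.015), and was named after its value was seen. Slc34a1, Gatm and Slc13a1 missed without control 2 (adjusted p = 0.050, 0.050 and 0.068), and Slc13a1 also missed without control 1 (0.11). Kap, a gene under androgen control in proximal tubules, was at 2969, 2557, 1793 and 633 and did not pass (adjusted p = 0.077).

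Of 15 thick ascending limb genes 11 fell and none rose (median -1.52), and the falls numbered 12, 8, 8 and 8 with a library left out. Slc12a1, the NKCC2 cotransporter that loop diuretics block, was at 2034, 1694, 468 and 383 (-2.13 ± 0.31, adjusted p = 0.0032). Umod, uromodulin, the main protein of normal urine, was at 585, 731, 294 and 303 (-1.13 ± 0.26, adjusted p = 0.020), and lost the call without knockout 2 (0.068), control 1 (0.068) and control 2 (0.16). Kcnj1, the ROMK channel, was at 146, 102, 76.7 and 83.5 (adjusted p = 0.070). In the distal convoluted tubule 6 of 10 genes fell and none rose (median -1.20), and the falls numbered 6, 6, 4 and 3. Slc12a3, the thiazide-sensitive cotransporter, was at 66.7, 95.9, 29.2 and 22.5 (-1.60 ± 0.24, adjusted p = 0.0036), Wnk4, a kinase that regulates it, at 55.6, 74.7, 16.5 and 12.8, and the calcium-binding protein Pvalb at 6.76, 8.43, 0.925 and 0.116. The medians in knockouts 1 and 2 were -1.29 and -1.77 for the thick ascending limb and -0.96 and -1.44 for the distal convoluted tubule.

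Of 10 connecting tubule genes 3 rose and 4 fell (median -0.59). Rises numbered 3, 3, 1 and 1 and falls 4, 3, 3 and 3 with a library left out. Calb1, calbindin, which carries calcium through the cell, was at 123, 167, 30.9 and 22.6 (-2.39 ± 0.33, adjusted p = 0.0028), and Kl, the FGF23 co-receptor klotho, at 151, 190, 69.9 and 43.4 (-1.60 ± 0.25). Trpv6, a calcium channel of the apical membrane, rose instead, from 1.30 and 1.24 to 8.83 and 12.8 (2.36 ± 0.21, adjusted p = 0.00060). Principal cell genes gave 9 rises and no fall among 20 (median 0.59), and 9, 6, 3 and 2 rises with a library left out. Elf5, a transcription factor of principal cells, was at 5.07, 3.40, 11.2 and 12.1 (1.29 ± 0.22, adjusted p = 0.0067), and Hsd11b2, the enzyme that keeps cortisol-like steroids off the aldosterone receptor, at 13.8, 15.4, 28.2 and 31.7. Elf5 missed without control 2 (adjusted p = 0.068) and Hsd11b2 without control 1 (0.067) or control 2 (0.050). Of the members that did not pass, Cdh16 was at 273, 253, 202 and 275 with overlapping groups (-0.16 ± 0.23, adjusted p = 0.67). The water channels Aqp2 (57.6, 31.5, 33.9 and 34.2) and Aqp3 (34.4, 21.8, 26.2 and 27.0) did not pass either (adjusted p = 0.83 and 0.97). The keratins of this list, Krt8 and Krt18 among them, are counted among the injury genes as well, and Hsd11b2 also in the connecting tubule list. Of 18 intercalated cell genes 9 fell and 1 rose (median -0.83), among them the ammonia transporter Rhbg (8.58, 11.2, 3.45 and 2.94) and the proton pump subunit Atp6v1c2 (17.0, 16.7, 7.09 and 5.36). Their falls numbered 10, 5, 5 and 3 with a library left out. Car2, carbonic anhydrase 2 of intercalated and other cells, was at 128, 140, 118 and 112 (adjusted p = 0.50). Among 12 podocyte genes 5 fell and none rose (median -0.42), with 4, 4, 1 and 1 falls as libraries were left out. Cdkn1c, a cell cycle inhibitor of mature podocytes, was at 15.0, 17.9, 6.22 and 4.12 (-1.52 ± 0.20, adjusted p = 0.0024), while Synpo, a podocyte actin-binding protein, was at 54.7, 60.2, 73.9 and 80.5 (adjusted p = 0.16).

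**Figure D3:**
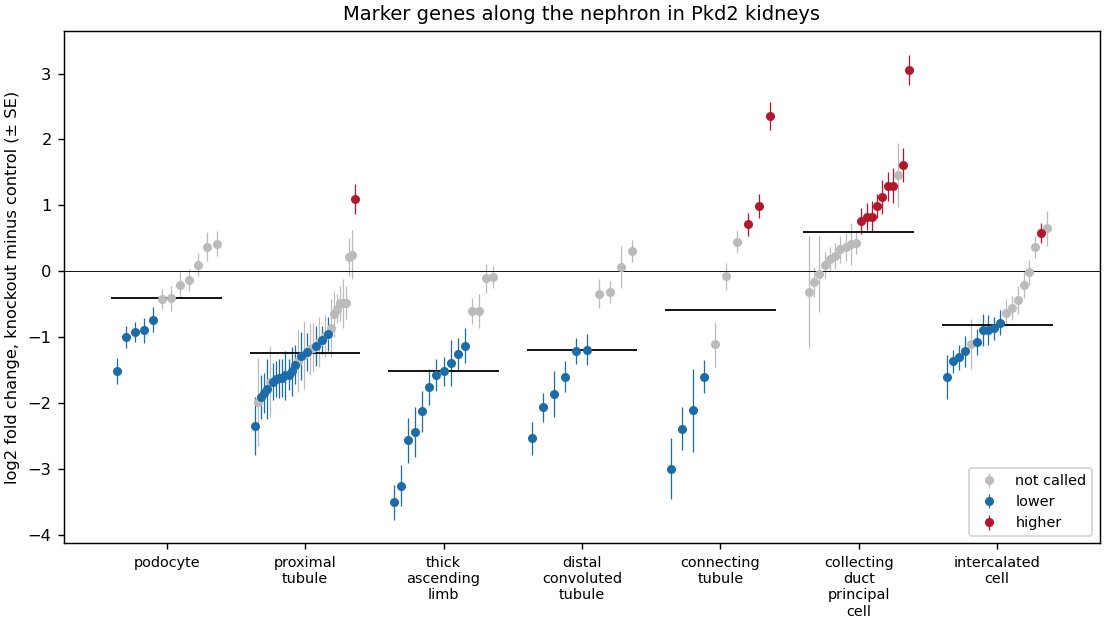
Each point is the log2 fold change of a marker gene (± SE), grouped by the segment it marks, with red and blue for genes called higher and lower and a black line at the list's median. Thick ascending limb, proximal tubule and distal convoluted tubule markers have the lowest medians (-1.52, -1.25 and -1.20), and principal cell markers are the group with a median above 0.

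Transcription factors of kidney development mostly fell where they passed. Of 23, 8 fell and 2 rose (median -0.12), and the falls numbered 9, 3, 0 and 0 with a library left out. Tfap2b, a factor of the distal nephron, was at 29.2, 30.2, 15.3 and 13 (-1.02 ± 0.18, adjusted p = 0.0070), Irx1, a factor of the middle nephron, at 8.29, 8.10, 3.76 and 1.41, and Pax2, an early nephron factor, at 9.80, 11.4, 2.94 and 4.25. Tfap2b, Irx1 and Pax2 missed without control 1 (adjusted p = 0.052, 0.070 and 0.064) and without control 2 (0.066, 0.074 and 0.11). Sox4, a factor of progenitor cells, rose (17.8, 17.1, 45.6 and 48.5; 1.38 ± 0.20, adjusted p = 0.0032) and kept its call in all 4 fits. Of 10 HoxB cluster genes 1 rose, Hoxb9 (17.2, 15.2, 22.4 and 26.8; adjusted p = 0.045), a call lost without knockout 2 (0.20), control 1 (0.14) and control 2 (0.28). The 33 genes of polycystic disease and the cilium gave 2 rises and 1 fall (median -0.11), a share below that of all genes. The counts of this list and of the HoxB cluster stand beside 9.54% called higher and 8.13% called lower over all tested genes. Bicc1, an RNA-binding protein whose loss gives cysts in mice, was at 118, 114, 170 and 213 (0.71 ± 0.21, adjusted p = 0.046), and Arl13b, a GTPase of the ciliary membrane, at 4.26, 4.30, 7.46 and 9.32 (0.82 ± 0.19). Neither passed without knockout 2 (adjusted p = 0.19 and 0.10), control 1 (0.18 and 0.11) or control 2 (0.24 and 0.12), and no other gene of the list did.

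Among 21 genes of cAMP and vasopressin signalling, the pathway that drives fluid secretion into cysts, 2 rose and 3 fell (median -0.04). Over all tested genes the shares were 9.54% higher and 8.13% lower, so these few calls are not read as a trait of the pathway. Ptger3, a prostaglandin E2 receptor that lowers cAMP, was at 29.0, 29.9, 5.49 and 6.89 (-2.09 ± 0.28, adjusted p = 0.0026), and Ptger4, a receptor for the same ligand that raises it, at 2.99, 3.88, 6.28 and 10.4 (1.05 ± 0.23, adjusted p = 0.018). Without knockout 1 the list gave 4 rises and 7 falls, and with any of the other 3 libraries left out no rise and 1 or 2 falls. These receptors of 1 ligand moved in opposite directions. Adcy6, an adenylyl cyclase of the collecting duct and distal tubule, was at 49.9, 47.6, 31.4 and 26.7 (-0.73 ± 0.17, adjusted p = 0.021). Ptger4 and Adcy6 lost their calls without knockout 2 (adjusted p = 0.083 and 0.098), control 1 (0.12 and 0.13) and control 2 (0.067 and 0.12), while Ptger3 kept its call in all 4 fits. The mTOR pathway, a nutrient-sensing growth pathway, gave 3 rises and 4 falls among 47 genes (median -0.08), beside the same shares of all genes. Pik3cd, a PI3-kinase subunit of leukocytes, was at 6.06, 5.96, 11.5 and 20.6, and Akt1s1, an inhibitor within mTORC1, at 31.7, 35.7, 19.8 and 9.71 (-1.22 ± 0.30, adjusted p = 0.027). Pik3cd missed without control 1 (0.071) or control 2 (0.083), and Akt1s1 without these (0.10 and 0.16) or knockout 2 (0.12). The list's calls were 6 rises and 4 falls without knockout 1, 1 rise without knockout 2 and none without either control.

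Genes of mitochondrial respiration fell together, and more so in knockout 2. Of 34 nuclear genes of oxidative phosphorylation 27 fell and none rose (median -1.19, with -0.72 in knockout 1 and -1.63 in knockout 2). The falls numbered 34, 8, 5 and 2 with a library left out. Uqcrc1, a core protein of complex III, was at 115, 122, 53.1 and 40.0 (-1.34 ± 0.19, adjusted p = 0.0028). Ndufs1, of complex I, was at 244, 250, 124 and 94.4, and Sdhb, the iron-sulfur subunit of complex II, at 136, 146, 67.3 and 43.9. Knockout 2 was lowest and knockout 1 between it and the controls in all 3. Sdhb missed without control 2 (adjusted p = 0.053). Cox6c, a short subunit of complex IV, was at 496, 446, 333 and 128 and did not pass (-1.18 ± 0.44, adjusted p = 0.094). The 15 mitochondrially encoded genes gave no call (limma; 9 at an unadjusted p below 0.05, none with edgeR and 7 lower with DESeq2) and had a median of -1.42, with -0.65 in knockout 1 and -1.95 in knockout 2. Their summed value was 534536, 524064, 391437 and 213425, lower in both knockouts than in either control. Of these genes 10 fell without knockout 1 and none with any of the other 3 libraries left out.

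Short transcripts were lower in knockout 2 than in the controls, and not in knockout 1. Over protein-coding genes whose transcripts are up to 600 nt long, the median change was 0.05 in knockout 1 and -0.40 in knockout 2 (518 genes). Over those above 4000 nt it was 0 and 0.25 (2462 genes). Many respiratory chain subunits are short. Of the 20 members up to 1000 nt 13 fell, with medians of -0.66 and -1.88 in knockouts 1 and 2. All 14 longer members fell, with medians of -0.84 and -1.38. Length here is the median over a gene's annotated protein-coding transcripts and need not be that of its main transcript. By this measure Uqcrc1 (533 nt) and Ndufs1 (651 nt) were counted as short, so the split is rough. The part of transcript length in these falls was not tested. With each library's trend on transcript length removed, an alternative chosen after the data were seen, 30 of the 34 genes fell, against 9.74% of all tested genes. The 34 cytoplasmic ribosomal proteins gave no call with limma, none with edgeR and 1 higher with DESeq2. With limma 2 had an unadjusted p below 0.05. Their median was 0.45 in knockout 1 and -0.19 in knockout 2. Rps18 of this list was at 411, 355, 599 and 368, with groups that overlap.

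**Figure D4:**
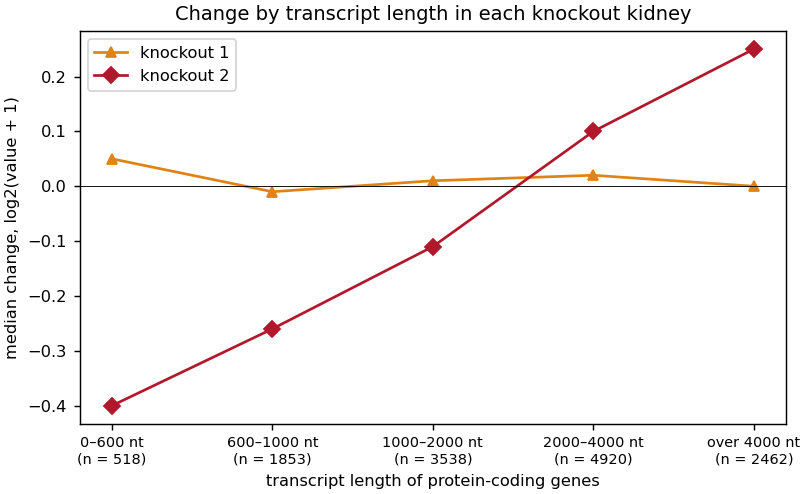
The median change against the mean of the controls is plotted for protein-coding genes in 5 classes of transcript length (the median over a gene's protein-coding transcripts), for each knockout. Knockout 2 runs from -0.40 to 0.25 from the shortest to the longest class, while knockout 1 stays between -0.01 and 0.05.

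The promoters of both complex II genes that fell and hold the NRF1 motif are shown, since NRF1 is a textbook activator of respiratory chain genes. The NRF1 motif was searched as its palindromic core with 1 free base in the middle, on either strand, in the same window and build, and capitals mark the matches.
Sdha, chr13:74350241-74350490, minus strand: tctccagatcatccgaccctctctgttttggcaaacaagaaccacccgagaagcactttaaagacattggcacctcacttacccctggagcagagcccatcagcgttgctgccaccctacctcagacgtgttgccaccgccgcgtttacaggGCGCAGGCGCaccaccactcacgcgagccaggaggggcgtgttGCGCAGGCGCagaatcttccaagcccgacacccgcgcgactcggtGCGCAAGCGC
Sdhd, chr9:50603850-50604099, minus strand: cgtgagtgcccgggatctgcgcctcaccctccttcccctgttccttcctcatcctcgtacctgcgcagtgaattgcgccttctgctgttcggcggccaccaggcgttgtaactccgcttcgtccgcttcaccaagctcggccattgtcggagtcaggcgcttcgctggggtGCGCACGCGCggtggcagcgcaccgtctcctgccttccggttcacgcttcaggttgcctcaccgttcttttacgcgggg

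Sdha held 3 matches and Sdhd 1. Over the list, 24 genes had 25 promoters in the table, of which 4 (16%) held the motif, against 7.42% of the promoters of tested genes. The motif of the ERR receptors (TNAAGGTCA) was found in none of the 25 and in 0.717% of the promoters of tested genes. Sdha, the flavoprotein subunit, was at 219, 240, 125 and 92.2 (-1.09 ± 0.26, adjusted p = 0.023), and Sdhd, a membrane anchor, at 94.5, 85.8, 59.1 and 33.9 (-0.99 ± 0.25, adjusted p = 0.029). Both missed without knockout 2 (0.12 for each), control 1 (0.098 and 0.15) and control 2 (0.15 and 0.13).

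Genes of fat oxidation and its regulators were also among the falls. Of 31 genes of fatty acid oxidation and peroxisomes 12 fell and none rose (median -0.60), and the falls numbered 21, 2, 1 and 1 with a library left out. Ppargc1a, the coactivator PGC-1alpha that drives mitochondrial biogenesis, was at 124, 89.9, 46.2 and 39.6 (-1.28 ± 0.23, adjusted p = 0.0079). Ppara, the fatty acid receptor, was at 25.1, 30.6, 13.7 and 8.97, and Esrrg, an orphan receptor of respiratory genes, at 66.2, 65.7, 40.0 and 33.5. All 3 regulators were lower in both knockouts, as was every gene called lower. Ppargc1a missed without control 1 (adjusted p = 0.070), and Ppara and Esrrg without knockout 2 (0.081 and 0.066), control 1 (0.056 and 0.091) or control 2 (0.12 and 0.10). Of 13 genes of gluconeogenesis and fructose use 3 fell (median -1.16), 11 without knockout 1 and none without any of the other 3 libraries. Khk, which starts the breakdown of fructose, was at 119, 130, 66.3 and 36.5 (-1.32 ± 0.33, adjusted p = 0.027), while Pck1, the control point of gluconeogenesis, was at 875, 1387, 423 and 181 and did not pass (-1.99 ± 0.67, adjusted p = 0.073). Glycolysis and lactate gave 2 rises and 1 fall among 20 genes (median -0.11), against 9.54% and 8.13% of all tested genes. The lactate exporter Slc16a3 rose (1.51, 0.971, 4.51 and 24.5; adjusted p = 0.040), mostly in knockout 2. Pfkm, a phosphofructokinase, was at 20.7, 23.0, 12.3 and 11.9 (-0.80 ± 0.20), and Gapdh at 1272, 1256, 883 and 920 (adjusted p = 0.32). The glycolysis list gave 4 rises and 1 fall without knockout 1 and no call with another library left out. Khk, Slc16a3 and Pfkm missed without knockout 2 (adjusted p = 0.15, 0.20 and 0.096), control 1 (0.11, 0.12 and 0.099) or control 2 (0.15, 0.19 and 0.17).

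The remaining lists were called in both directions or in few members, beside 17.7% of all tested genes. Of 22 sterol and fatty acid synthesis genes 2 fell, among them Lss, an enzyme of cholesterol synthesis (18.6, 19.0, 11.2 and 11.3). Of 22 glutathione and detoxification genes 1 rose, Hmox1, heme oxygenase (4.57, 5.58, 10.2 and 12.3), and 2 fell, against 9 falls without knockout 1 and none with any of the other 3 libraries left out. Gpx3, the plasma glutathione peroxidase made by proximal tubules, was at 3486, 3718, 2583 and 658 (adjusted p = 0.13), with its lowest value in knockout 2. Of 15 cytochrome P450 genes 2 rose and 2 fell. Cyp24a1, which degrades active vitamin D, was at 18.7, 25.5, 6.87 and 4.42 (-1.81 ± 0.31, adjusted p = 0.0062), and Cyp1b1, an enzyme of stromal cells, at 13.7, 11.1, 30.4 and 30.0 (1.22 ± 0.16). Among 8 liver genes 2 rose and 3 fell, the rises being the fibrinogen chains Fgb (1.61, 1.04, 8.30 and 8.83) and Fga (7.87, 7.30, 42.9 and 60.9), so that with Fgg all 3 chains of fibrinogen rose while Alb fell. Of 6 erythroid genes 1 fell, Slc4a1, the anion exchanger of red cells and intercalated cells (12, 16, 3.64 and 4.07). Neither of 2 tested adrenal genes was called by limma, though both had an unadjusted p below 0.05 and both were lower with edgeR and DESeq2, and the 1 tested skeletal muscle gene was called by none of the 3. Of the genes named here Lss, Hmox1 and Fga missed without knockout 2 (adjusted p = 0.051, 0.091 and 0.064), control 1 (0.097, 0.12 and 0.056) or control 2 (0.12, 0.071 and 0.070). Slc4a1 missed without knockout 2 (0.053) or control 2 (0.11), and Cyp24a1 without control 2 (0.059).

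**Figure D5:**
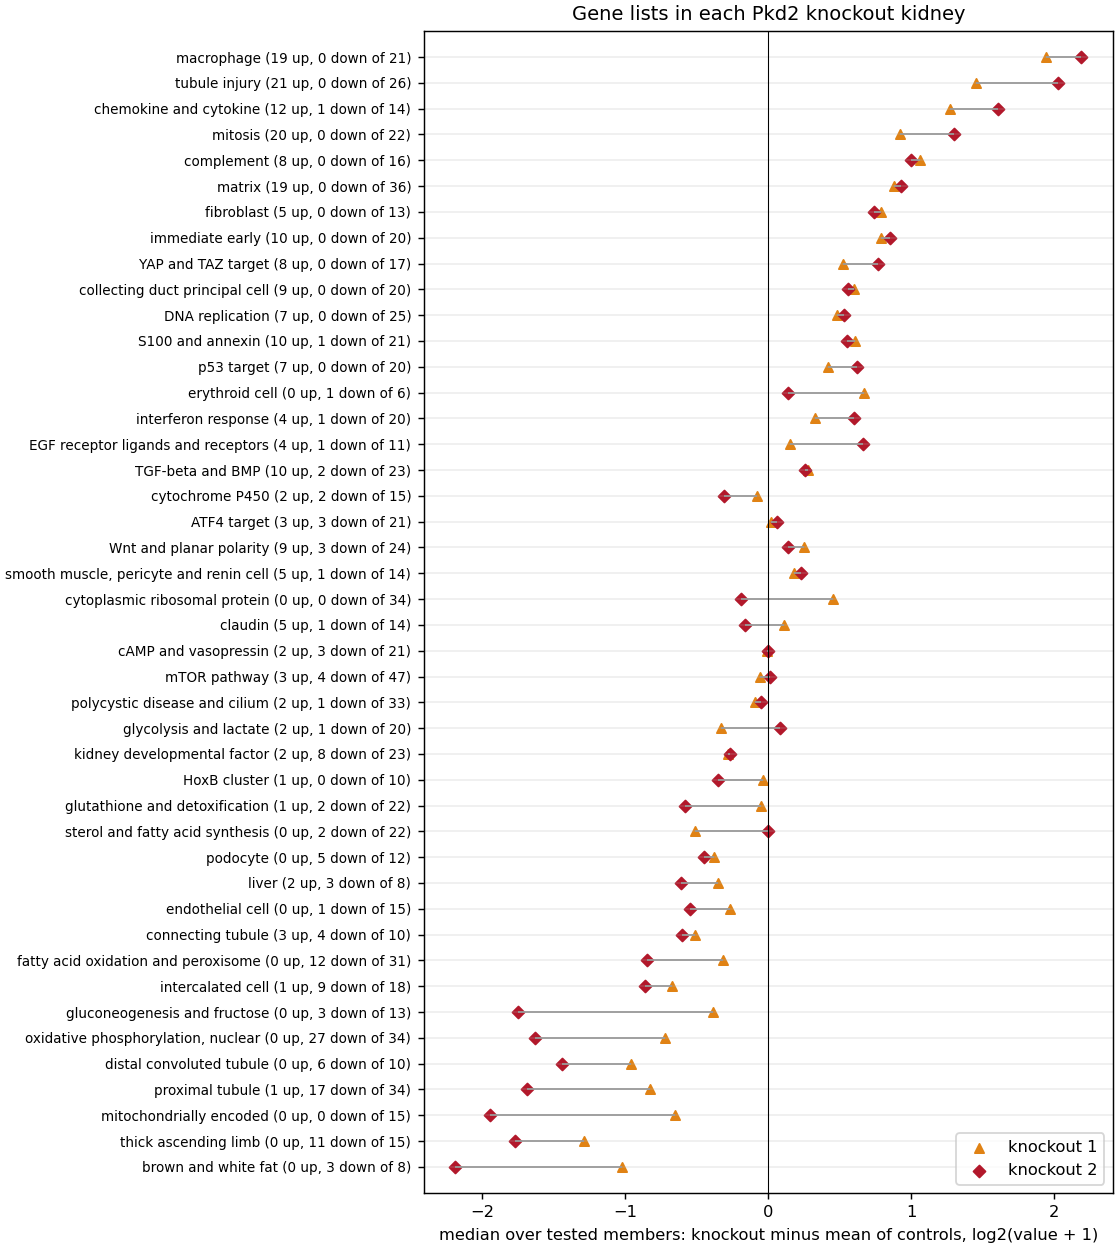
For each gene list with at least 5 tested members, the triangle and the diamond give the median change in knockout 1 and knockout 2 on the log2(value + 1) scale, with counts of called members beside the name. Macrophage and tubule injury genes lie at the upper end, and thick ascending limb, fat and mitochondrial genes at the lower end, where knockout 2 is farther from 0.

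The knockouts differed from each other in named genes, which were chosen for that difference and are described without a test. Genes far higher in knockout 2 included Muc4, a membrane mucin (0.156, 0.176, 3.81 and 22.3), Clca3a2, a chloride channel regulator family member (0.624, 0.772, 6.93 and 28.1), and Itgb4, the integrin of hemidesmosomes (12, 14.7, 39.7 and 108). All 3 were called higher and were above both controls in knockout 1 as well, though Muc4 and Itgb4 missed without control 2 (adjusted p = 0.050 for each) and Itgb4 without control 1 (0.064). Genes far lower in knockout 2 included the ATP synthase subunits Atp5e (70.7, 70.1, 50.5 and 6.94) and Atp5k (140, 163, 94.4 and 20.0), the trypsin inhibitor Spink1 (166, 151, 133 and 22.6) and the ribosomal protein Rps29 (209, 235, 265 and 55.5). None of these 4 was called, and the change of Rps29 turned to 0.25 without knockout 2. Their transcript lengths, taken as the same median, were at most 729 nt, that of Spink1.

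The difference between the Pkd2 effect and the Pkd1 effect was tested in the same fit. The models differ in gene, Cre, age and the Xist and Y-linked pattern of their libraries, which cannot be told apart. In Pkd1 control 1, control 2, knockout 1 and knockout 2, Xist was at 0.221, 416, 25.3 and 27.7. Their Y-linked sums were 155, 10.4, 149 and 183. At an adjusted p below 0.05, 1 gene of 14637 was called (0.00683%), and 1207 had an unadjusted p below 0.05. With DESeq2 on recovered reads 104 were called, and with edgeR none. The gene was Serpina10 (ENSMUSG00000061947.8, chr12:103614786-103631444), which encodes the inhibitor of coagulation factor Xa known as protein Z-dependent protease inhibitor. It was at 3.69, 2.96, 34.1 and 27.3 in the Pkd2 kidneys, a rise of 2.87 ± 0.19 (adjusted p = 0.00032), while its change in Pkd1 knockouts was -0.13 ± 0.19. The difference was 3.00 ± 0.27 (adjusted p = 0.025), and it passed without either knockout (0.014 and 0.022) but not without control 1 (0.054) or control 2 (0.20), nor with edgeR (0.14). Havcr1 rose by 5.77 ± 0.42 in Pkd2 kidneys and changed by 0.95 ± 0.42 in Pkd1 kidneys, a difference of 4.81 ± 0.60 that did not pass (adjusted p = 0.063). For Lcn2 the effects were 6.01 ± 0.31 and 3.77 ± 0.31 (adjusted p of the difference 0.15), and for Egf they were -3.51 ± 0.27 and -3.66 ± 0.27 (0.99). For Egf the difference was 0.14 ± 0.38, and a miss of the threshold does not show that the models act alike. Medians of the lists in the Pkd2 and Pkd1 comparisons were 2.05 and 1.21 for macrophages, 1.05 and 0.42 for mitosis, -1.52 and -1.27 for the thick ascending limb and -1.19 and -0.53 for oxidative phosphorylation, with no test of these differences.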

How the data were processed

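Per the labels' protocols, Trizol was used to extract RNA and a TruSeq kit to build the libraries. The submitters' processing notes list edgeR, RSEM 1.2.22, STAR 2.4.2a, Cufflinks 2.2.1 and FastQC 0.11.2, with build mm10. What each tool did is not given in the sources used, nor is the strand setting. The deposited kidney table holds a scaled signal for each gene in each library, which behaves as CPM divided by a scaling factor. They are whole multiples of 1 read for 94.2% to 95.0% of genes above 0 in the Pkd2 libraries (within 0.02 of a read), and the reads recovered this way gave the depths.

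Of 28183 genes, the 14637 that reached 1 in 2 or more of the 8 kidney libraries entered a limma-trend fit (limma 3.58.1, R 4.3.3) of log2(value + 1), a scale that understates changes of low genes. The fit held 4 groups of 2 (residual df 4, prior df 4.77). The threshold for a call was an adjusted p below 0.05 (Benjamini-Hochberg, over all tested genes). The design had named this test for values without counts. Scripts were tested on simulated data.

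Alternatives were quantile scaling, no filter, a minimum of 5, a pseudocount of 0.1, edgeR 4.0.16 and DESeq2 1.42.0 on recovered reads of 7 libraries (all but Pkd1 control 1), a replicate block, mitochondrial and small RNAs left out, the Pkd2 libraries alone, a 2-fold minimum and each Pkd2 library left out. A fit with transcript length trends removed (lowess, GENCODE M21), and list counts with a library left out, were added after the data were seen.

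The members, the 49 gene lists and the naming rule were chosen with earlier results of these data known. Named genes included 5 fixed genes (Pkd2, Pkd1, Pkhd1, Cdh16 and Hoxb3os). The 12 largest rises and 12 largest falls were taken among called genes with a mean of 5 or more and separate groups. Xist, Y-linked genes, small RNAs, pseudogenes and predicted genes were left aside. Also named were up to 4 called and 2 other members of each list, and 8 each way that differed most between the knockouts. The rest were 8 each way that changed most in both, and up to 5 each way called between the models. Aqp2, Aqp3, Cxcl12, Mki67, Top2a, Sdha, Sdhd and Slc13a1 were named outside the rule, after their values were seen. The deposited cell line table and the authors' fold changes were not used.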

Additional observations from a re-analysis of the deposited data

Results flagged for a closer look

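Serpina10 was the gene whose knockout effect differed between the models by the test of the difference itself. It rose by 2.87 in Pkd2 kidneys and changed by -0.13 in Pkd1 kidneys on the log2 scale, a difference of 3.0 ± 0.27 (SE, limma, adjusted p = 0.025). The difference did not pass in limma with no filter on low values (adjusted p = 0.075) or with the replicate block (0.061). It also missed in other settings given above. In the Pkd2 kidneys the controls were at 3.69 and 2.96 and the knockouts at 34.1 and 27.3. In every called gene the groups did not overlap, so this adds nothing to the call. The models differ in gene, Cre, age and the Xist and Y-linked pattern of their libraries, which cannot be told apart.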

How the results depend on the processing

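The count of genes called in Pkd2 kidneys (2587; 1397 higher and 1190 lower) was 1379 (860 and 519) with the 4 Pkd2 libraries alone and 1345 (766 and 579) with a 2-fold minimum. Lower calls were 761 with no filter and 722 with edgeR. Leaving out each Pkd2 library gave 669 to 4328 called, 480 to 2050 higher and 189 to 2278 lower, a lone library being assumed to vary like the other groups. The replicate block left 787 lower calls and no gene called between the models; the replicate numbers pair nothing in the labels, and same-numbered deviations correlated at -0.05. Between the models, where 1 gene was called, quantile scaling gave 8, no filter 0, a pseudocount of 0.1 gave 5, leaving out mitochondrial and small RNAs 18, removing length trends 22, edgeR 0, DESeq2 104 and leaving out a library 0 to 50. Directions turned with a library left out for uncalled genes. Among them, Erbb4 ran from -0.25 to 0.04, Rps18 from -0.05 to 0.65 and Cdh16 from -0.38 to 0.07, the turn being without knockout 1. Pkd1 ran from -0.12 to 0.20 and Rps29 from -1.98 to 0.25, the turn being without knockout 2. Of 132 called genes named, 129 kept the call with DESeq2, 121 with edgeR, 128 with quantile scaling, 125 with the block, 116 with the 4 Pkd2 libraries alone and 112 with no filter. Without knockout 1, knockout 2, control 1 and control 2 in turn, 132, 105, 99 and 85 kept it. The cause of these changes was not tested. With 2 libraries a group, calls rest on a spread pooled over all groups.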
